A study of Homo sapiens with 16 samples.

Results

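Adding an inhibitor of LSD1 and an inhibitor of GCN5 to the retinoid Am80 was examined in OCI-AML3, an established acute myeloid leukemia (AML) cell line. The comparison took the 3 RNA-seq libraries of cells given Am80, GSK-LSD1 and MB3 and set them against the 3 libraries of cells given Am80 alone, which is 6 of the 16 libraries of the series. Am80 (tamibarotene), an agonist of retinoic acid receptor alpha (RARA), was used at 0.1 µM, GSK-LSD1, which inactivates the histone demethylase LSD1, at 0.1 µM, and MB3, an inhibitor of the histone acetyltransferase GCN5, at 100 µM. These doses are those that the methods give for the cell lines, and the cells for RNA-seq were collected after 3 h. The other libraries came from untreated cells (4), from cells given all-trans retinoic acid (ATRA, 0.1 µM, 3), which activates RARA, RARB and RARG, and from cells given ATRA with both inhibitors at the same doses (3). No group received the inhibitors without a retinoid or 1 inhibitor alone, so the effects of GSK-LSD1, of MB3 and of their combination with Am80 cannot be told apart. The sources used here do not name a vehicle for any group. Nothing in them says whether the replicates of a group were separate cultures, so the p-values measure the spread between these libraries, which may be technical.

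Retinoic acid receptors sit on DNA with an RXR partner, hold target genes silent without ligand and recruit histone acetyltransferases when ligand binds. LSD1, encoded by KDM1A, removes methyl groups from lysine 4 of histone H3 within the CoREST complex, and in blood cells it is brought to DNA by the repressors GFI1 and GFI1B. GCN5, encoded by KAT2A, is the acetyltransferase of the SAGA and ATAC complexes. In AML, release of this silencing is studied as a way to let retinoids drive leukemic cells toward mature myeloid cells. Cells under chemical or protein stress use other programs: NRF2 turns on antioxidant and detoxifying enzymes, HSF1 the heat shock chaperones, ATF4 the amino acid and stress genes, and MTF1 the zinc-binding metallothioneins.

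The values are DESeq2-normalized counts, which are reads per gene divided by a size factor of the library. Every value was a whole number of reads divided by such a factor (100% of values, within 0.01 reads). The Am80 libraries held 19254731 (replicate 1), 33789718 (replicate 2) and 24149972 reads (replicate 3), and those with the inhibitors held 17554734, 14118272 and 14706886, so all 3 Am80 libraries were deeper than all 3 with the inhibitors. Am80 replicate 2 stood apart from its group: the chi-square per degree of freedom of its counts was 17.2 and 25.9 against replicates 1 and 3, while replicates 1 and 3 gave 4.61 and the pairs with the inhibitors 2.75 to 5.43. Calls lost without it are therefore given beside the results. All 9 myeloid and AML markers examined passed the filter on low values, whereas the 5 T cell markers summed to at most 0.928 normalized counts in any of the 6 libraries, the 5 erythroid markers to at most 2.19, the 5 B cell markers to between 38.1 and 59.2 and the 5 stromal and epithelial markers to between 57.9 and 86.3 (mostly COL1A2). COL1A2 did not pass the test between the groups.

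Of the 62700 genes in the table, 14555 averaged 10 or more normalized counts across these 6 libraries and were tested with limma on log2(normalized count + 1). A gene was called, and is described as having risen or fallen, at a Benjamini-Hochberg adjusted p under 0.05 and a fold of at least 1.5. With the inhibitors beside Am80, 1005 genes were higher (6.9% of those tested) and 1281 were lower (8.8%), together 2286 genes (15.7%). The median rise among called genes was 1.80-fold and the median fall was also 1.80-fold. Changes of at least 2-fold made up 348 rises and 428 falls, those of at least 4-fold 49 and 21, and those of at least 8-fold 6 and 2. In 7174 genes (49.3% of those tested) the 3 values with the inhibitors lay wholly above or wholly below the 3 values with Am80. For 7805 genes (53.6%) the 95% confidence interval of the change lay inside 1.5-fold in both directions. The called genes were 800 protein-coding rises and 945 protein-coding falls, of 12000 protein-coding genes tested. Genes that fell spanned a shorter stretch of genome, with a median of 14773 bases from start to end against 28875 bases for those that rose and 26888 for all genes tested. Without Am80 replicate 2, 1097 genes were higher and 1348 lower, among them 915 of the 1005 and 1121 of the 1281.

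Deposited values are centred so that the median gene did not change (median log2 fold change -0.01), but the normalized totals were higher with the inhibitors, 18934111 to 19405115 against 17466223 to 17875093 with Am80. HSP90AA1 alone made up 5.76% of that difference and HSPA8 4.14%, followed by the mitochondrial ribosomal RNA MT-RNR2 (3.61%). Scaling to total reads put the median of all genes at -0.13 on the log2 scale, and the calls became 674 higher and 1837 lower, so that the share of rises among the calls was 26.8% instead of 44.0%. The direction of the named changes below held under both scalings. All values are relative to the other RNA of a library, so a gene that rises here rose relative to the median gene.

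**Figure D1:**
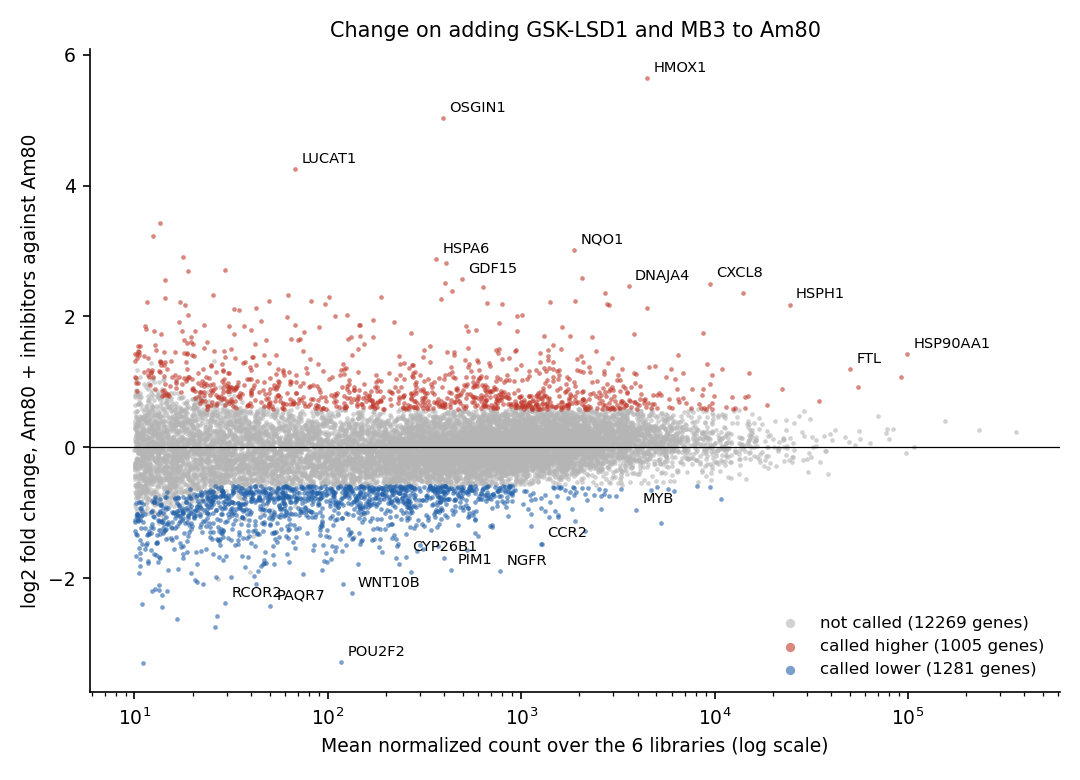
Mean normalized count over the 6 libraries (log axis) against the log2 fold change on adding GSK-LSD1 and MB3 to Am80, 1 point per gene tested. The 1005 rises (red) reach 5.64 at HMOX1, the 1281 falls (blue) include POU2F2 at -3.28, and abundant chaperone genes such as HSP90AA1 sit above 0 at the far right.

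The largest rise was in HMOX1 (ENSG00000100292, chr22:35380361-35394214, plus strand, GRCh38), which encodes heme oxygenase 1, the enzyme that degrades heme. It was counted at 210, 142 and 179 with Am80 and at 9662, 8919 and 7763 with the inhibitors, a 49.8-fold rise (log2 fold change 5.64, SE 0.18, limma adjusted p = 6.46e-15). No value with the inhibitors came near those with Am80, and the 4 untreated libraries held 131 to 195. OSGIN1, an oxidative stress-induced growth inhibitor, rose 32.7-fold, from 27.9, 16.1 and 24.6 to 858, 760 and 673 (log2 fold change 5.03, SE 0.23). The quinone reductase gene NQO1 rose 8.07-fold, from 429, 395 and 412 to 3625, 3443 and 2958. These leading genes are targets of the antioxidant factor NRF2, which are described together below. OSGIN1 shares exon sequence with an unnamed gene on its own strand and NQO1 with one on the other strand, so some of their reads could belong to those.

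Other leading rises came from other groups of genes. SLC1A3, a glutamate and aspartate transporter, went from 84.5, 112 and 106 to 692, 733 and 726, above the untreated cells (409 to 465), which themselves were above Am80. S1PR3, a receptor for sphingosine 1-phosphate, went from 609, 558 and 600 to 3631, 3678 and 3283. MBNL2, a splicing regulator, rose from 122, 137 and 104 to 663, 716 and 681. SAT1, which acetylates the polyamines spermidine and spermine, rose from 194, 197 and 192 to 1089, 1153 and 973. CECR2, a bromodomain protein, rose from a low level of 3.71, 9.32 and 9.40 to 54.8, 50.9 and 47.6. The log2 fold changes of these 5 genes were 2.45 (SAT1) to 2.82 (SLC1A3), with an SE of 0.36 for CECR2, whose Am80 values rest on 4, 18 and 13 reads, and of 0.10 to 0.13 for the others. HSPA6, GDF15, CXCL8 and DNAJA4 are given with their groups. They are the remaining ones of the 12 largest protein-coding rises with a mean of at least 50 in the higher group.

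POU2F2 (ENSG00000028277, chr19:42086110-42196585, minus strand), which encodes the octamer-binding transcription factor Oct-2, had the largest fall among protein-coding genes with a mean of at least 50 in the higher group. It was counted at 196, 216 and 226 with Am80 and at 23.0, 19.2 and 20.6 with the inhibitors (log2 fold change -3.28, SE 0.20, limma adjusted p = 1.87e-10). Untreated cells stood between these groups at 78.7 to 127. PAQR7, a membrane progestin receptor, fell from 82.6, 77.7 and 96.2 to 14.3, 12.4 and 19.3, and WNT10B, a Wnt ligand, from 230, 184 and 242 to 47.1, 34.4 and 57.9. The nerve growth factor receptor gene NGFR fell from 1331, 970 and 1384 to 344, 319 and 314, and untreated cells held 162 to 218. PIM1, a serine/threonine kinase, fell from 641, 661 and 749 to 183, 195 and 178, back to the untreated range of 165 to 218. ADGRG5, an adhesion G protein-coupled receptor, and ADAM19, a membrane metalloprotease, likewise ended below or at untreated levels (99.0 to 124 against 193 to 240, and 16.4 to 19.3 against 21.1 to 24.9). The other members of the 12 largest falls with a mean of at least 50 were MRM1, FANCF, EMILIN1, RIBC2 and KLHL30. Their log2 fold changes were -1.94 to -2.09. MRM1 methylates mitochondrial ribosomal RNA, and FANCF belongs to the Fanconi anemia DNA repair complex. RCOR2, described below, fell by more (-2.38), but its mean of 49.8 with Am80 was just under that limit. Exons of PAQR7, FANCF, KLHL30, NGFR and ADAM19 overlap genes on the other strand, over 0.805% (ADAM19) to 22.3% (NGFR) of their length.

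**Figure D2:**
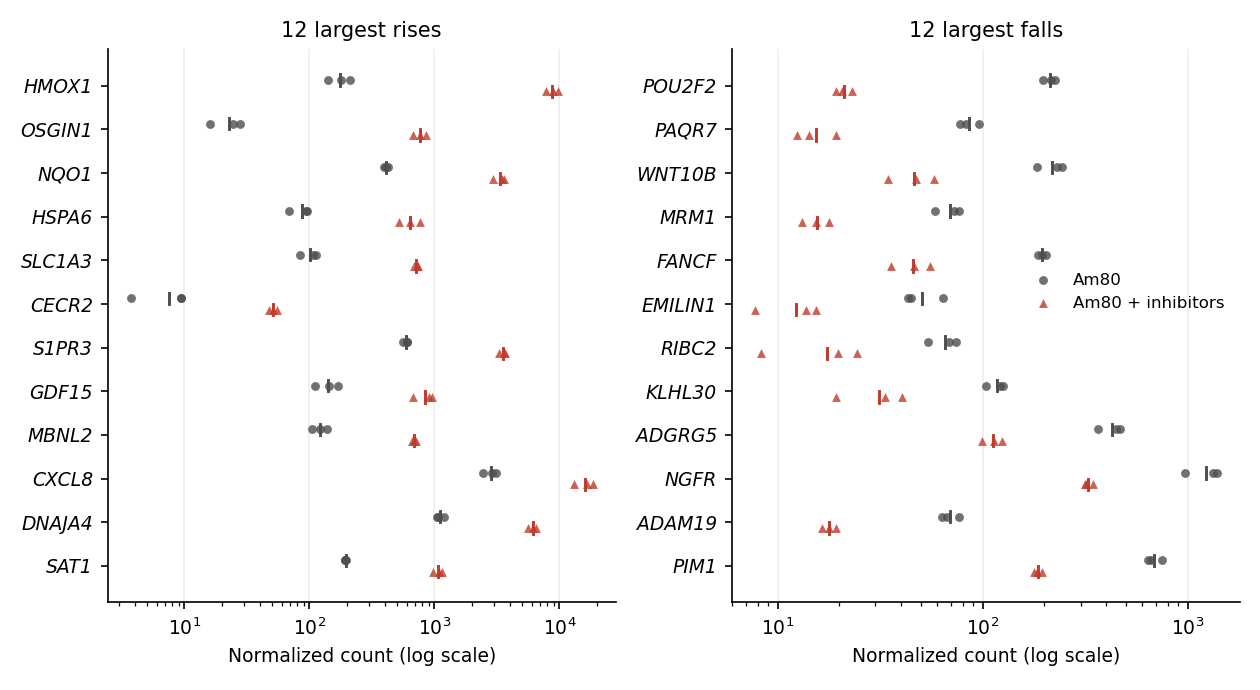
Normalized counts (log axis) of the 12 largest protein-coding rises and falls in each of the 3 Am80 libraries (circles) and the 3 libraries with Am80 and both inhibitors (triangles), with the group mean as a vertical bar. The genes were chosen among those whose groups do not overlap and whose mean is at least 50 in the higher group. The gap is widest for HMOX1, 142 to 210 against 7763 to 9662.

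Of 30 NRF2 targets and regulators on the list used, 29 were tested (AKR1B10 had no read), and 17 rose while 1 fell, with a median log2 fold change of 0.83 against -0.01 for all genes. Rises were 58.6% and falls 3.45% of those tested, against 6.9% and 8.8% of all genes tested. Beside HMOX1, OSGIN1 and NQO1, the rises covered glutathione synthesis, thioredoxin, NADPH supply and iron storage. GCLM, the regulatory subunit of the enzyme that limits glutathione synthesis, rose from 965, 1116 and 916 to 4557, 4573 and 4527 (log2 fold change 2.19, SE 0.08, limma adjusted p = 3.02e-14), whereas the catalytic subunit GCLC went from 292, 346 and 332 to 426, 399 and 389 and did not reach 1.5-fold. TXNRD1, thioredoxin reductase, rose from 3996, 4315 and 3788 to 14070, 13313 and 13000, while its substrate TXN was at 3595, 3706 and 3006 and then 3489, 3468 and 2795. TXNIP, which binds and inhibits thioredoxin, was the member that fell, from 6911, 7412 and 6663 to 4284, 4578 and 4626. The cystine importer SLC7A11 rose from 257, 328 and 241 to 901, 738 and 715. NADPH is supplied by PGD, which rose from 2416, 2292 and 2477 to 5370, 5325 and 5118, and by ME1, with a log2 fold change of 1.07, but TKT (0.47) and TALDO1 (0.30) stayed under the fold limit. The ferritin chains FTL and FTH1 rose by 1.19 and 1.20 on the log2 scale. Am80 replicate 2 was the lowest library for both (24818 reads per size factor against 34610 and 32677 for FTL), and both were still called without it. FTH1 overlaps BEST1 on the other strand over 62.4% of its exons. NFE2L2 itself, which encodes NRF2, rose from 1119, 1282 and 1072 to 2432, 2389 and 2306, and its partner MAFG from 3002, 2631 and 3130 to 7381, 6959 and 6293. KEAP1, the adaptor that marks NRF2 for degradation, differed by 0.22 (95% confidence interval 0.02 to 0.43) and did not pass the test.

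NRF2 with a small MAF partner binds the antioxidant response element, searched here as TGACNNNGC on both strands of the promoters in RefSeq (GRCh38.p14), 250 bases before to 50 bases after the start of 1 transcript per gene. Of the 17 members that rose, 13 had a promoter in the table and 4 of these (GCLM, TXNRD1, PGD and ME1) held the element, against none of the 9 other members with a promoter, 15.5% of the promoters of tested genes, 19.0% of those of all genes called higher and 13.6% of all 27305 promoters. GCLM and TXNRD1 are shown because they rose most among these 4. Capitals mark the element, which reads on the strand opposite to the gene in GCLM and on both strands in TXNRD1. The GCLM window lies at chr1:93909381-93909680 on the minus strand and the TXNRD1 window at chr12:104215529-104215828 on the plus strand. A match describes these letters and is not a measured binding site.
GCLM: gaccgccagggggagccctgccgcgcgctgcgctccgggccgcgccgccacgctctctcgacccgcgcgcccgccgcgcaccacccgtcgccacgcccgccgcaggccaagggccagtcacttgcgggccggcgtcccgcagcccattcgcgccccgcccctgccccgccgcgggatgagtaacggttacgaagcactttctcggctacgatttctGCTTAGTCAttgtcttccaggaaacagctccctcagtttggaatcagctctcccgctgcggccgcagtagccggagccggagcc
TXNRD1: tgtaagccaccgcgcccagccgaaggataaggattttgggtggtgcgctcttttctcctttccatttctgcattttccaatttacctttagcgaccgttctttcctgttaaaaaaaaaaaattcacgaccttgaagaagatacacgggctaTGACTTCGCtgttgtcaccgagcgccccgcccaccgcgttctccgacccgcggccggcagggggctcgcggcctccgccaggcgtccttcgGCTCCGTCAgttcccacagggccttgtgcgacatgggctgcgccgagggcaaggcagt

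Most heat shock proteins and co-chaperones tested rose. Of 27 genes listed, 23 were tested, 20 rose (87.0%, against 6.9% of all genes tested) and none fell (8.8% of all genes did), with a median log2 fold change of 1.13. HSPA6, a strictly inducible HSP70 (chr1:161524540-161526910), rose most, from 94.7, 68.9 and 96.2 to 772, 636 and 520 (log2 fold change 2.88, SE 0.18, limma adjusted p = 2.93e-10). The stress-inducible HSP70 genes HSPA1A and HSPA1B had at most 3 reads in any of the 6 libraries. These neighbours are nearly identical, so that reads shared between them may not have been counted, and their level is uncertain. DNAJA4 and DNAJB1, J-domain proteins that hand clients to HSP70, rose from 1047, 1204 and 1062 to 6535, 6185 and 5566 and from 4934, 4078 and 4671 to 26831, 23057 and 20202. The nucleotide exchange factors HSPH1 (HSP110) and BAG3 rose from 8847, 9184 and 8531 to 41217, 41273 and 38000 and from 675, 608 and 710 to 3270, 3238 and 2870. Cytosolic HSP90 rose in both its stress form HSP90AA1, from 56238, 56850 and 48341 to 148960, 156750 and 128890, and its constitutive form HSP90AB1, from 36683, 40246 and 37844 to 73660, 73507 and 69727. Its helpers STIP1, AHSA1, FKBP4 and CHORDC1 rose by 1.11, 1.23, 1.19 and 1.73 on the log2 scale, the small chaperone HSPB1 by 1.56, and the mitochondrial pair HSPD1 and HSPE1 by 0.90 and 0.87. HSPA4L, another HSP110 family member, rose from 606, 679 and 566 to 1966, 2081 and 1952. HSF1, the factor that drives these genes, differed by 0.29 (SE 0.09), under the fold limit, and HSF2 and DNAJB2 overlapped between the groups.

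HSF1 binds inverted repeats of GAA, searched here as GAANNTTCNNGAA on both strands of the same promoter windows. It was found in 5 of the 19 members that rose and had a promoter (HSPA6, HSPA8, DNAJA1, DNAJB6 and CHORDC1), in none of the 5 others with a promoter, in 0.296% of the promoters of tested genes and in 0.487% of all promoters. Over all called genes with a promoter, 9 of 695 that rose held it (1.30%), among them these 5, and 3 of 858 that fell (0.350%). HSPA6 and CHORDC1 are shown because they rose most among these 5. CHORDC1 holds 3 overlapping matches, which run together in the capitals. The windows are chr1:161524290-161524589 on the plus strand and chr11:90223000-90223299 on the minus strand.
HSPA6: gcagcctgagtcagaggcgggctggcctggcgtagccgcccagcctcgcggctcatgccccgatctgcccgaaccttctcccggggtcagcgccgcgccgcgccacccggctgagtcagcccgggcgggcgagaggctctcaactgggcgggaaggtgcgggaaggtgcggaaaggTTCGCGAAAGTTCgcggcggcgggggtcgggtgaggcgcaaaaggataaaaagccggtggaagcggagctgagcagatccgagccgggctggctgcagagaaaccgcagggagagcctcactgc
CHORDC1: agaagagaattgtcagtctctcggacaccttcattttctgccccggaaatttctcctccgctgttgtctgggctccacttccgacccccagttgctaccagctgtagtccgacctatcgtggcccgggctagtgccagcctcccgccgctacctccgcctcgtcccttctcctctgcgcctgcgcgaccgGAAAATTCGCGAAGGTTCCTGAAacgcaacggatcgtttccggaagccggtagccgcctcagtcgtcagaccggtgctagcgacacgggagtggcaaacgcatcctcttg

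Stress genes of the endoplasmic reticulum and of the ATF4 program rose in part. Among 22 genes of the unfolded protein response, none fell (8.8% of all genes tested did) and 7 rose (31.8%, against 6.9%), with a median log2 fold change of 0.44. They were the transcription factor XBP1 (5344, 5453 and 5292 to 10376, 10210 and 9224), its activating nuclease ERN1 (412, 405 and 412 to 639, 601 and 618), the luminal HSP70 HSPA5 (26347, 26341 and 26442 to 43943, 43274 and 42314), HERPUD1, DNAJB9, DNAJC3 and MANF. When libraries were scaled to total reads, HERPUD1, ERN1 and MANF were not called. Of 24 ATF4 targets tested, 9 rose (37.5%, against 6.9% of all genes tested) and none fell (8.8% of all genes did), with a median of 0.29. GDF15, a stress cytokine, rose from 168, 111 and 144 to 950, 898 and 677, all above the untreated libraries (16.6 to 48.7). DDIT3 (CHOP) went from 315, 351 and 289 to 766, 770 and 704, and PPP1R15A (GADD34), which reverses the phosphorylation of eIF2 alpha, from 510, 503 and 468 to 1688, 1271 and 1223. The amino acid transporter SLC7A5, the sestrin SESN2, and TRIB3, DDIT4, CHAC1 and ASNS were the other rises. ASNS and CHAC1 rested on low counts (29.7, 39.4 and 52.8 to 71.3, 67.3 and 69.5 for ASNS). ATF4 transcript was at 3222, 3088 and 3066 and then 3928, 3668 and 3427, under the fold limit. The serine synthesis genes PHGDH, PSAT1 and PSPH, also ATF4 targets, did not reach it either (-0.04, 0.21 and 0.03). Genes on the other strand overlap 27.2% of the exons of DDIT3 and 41.2% of those of DDIT4. The C/EBP-ATF element, searched as TGATGNAA in the same promoter windows, was in 2 of the 9 members that rose (22.2%). It was in 5 of the 14 other members with a promoter (35.7%) and in 1.76% of the promoters of tested genes.

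Metallothioneins went the other way. Of 13 genes on the list of metallothioneins and zinc regulators 9 were tested, and 6 fell and 1 rose (median log2 fold change -0.79). Falls were 66.7% and rises 11.1% of those tested, against 8.8% and 6.9% of all genes tested. MT1E fell from 843, 670 and 840 to 278, 279 and 233, MT1G from 900, 599 and 796 to 394, 361 and 348, and MT2A from 694, 448 and 659 to 401, 361 and 362. MT1X, MT1F and MT1M were the other falls. MT1M had 3 reads in each library with the inhibitors, so its fall is given as at least 4.63-fold lower, with the floor at 3 reads per library. The member that rose was MTF1, the zinc-sensing factor that turns on metallothionein genes, from 874, 956 and 884 to 1762, 1597 and 1748. The metallothionein genes are close paralogs and reads may have been split between them. The metal response element, searched as TGCACNC or TGCGCNC, was in 5 of the 7 listed promoters and in 39.1% of those of tested genes. MT1X and MT2A, which fell, held it, and so did 3 of the 4 members not called or not tested.

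Genes of retinoid handling and direct retinoid targets, which Am80 acts on, included both falls and rises with the inhibitors. Of 28 listed 22 were tested, 6 fell (27.3%, against 8.8% of all genes tested) and 2 rose (9.09%, against 6.9%), with a median log2 fold change of -0.23. The falls were in CYP26B1 and CYP26A1, which degrade retinoic acid, STRA6, the cell surface receptor for retinol-binding protein, the receptor RARG, the transglutaminase TGM2 and the repressor HIC1. CYP26B1 went from 404, 326 and 436 to 110, 126 and 124 (log2 fold change -1.68, SE 0.22, limma adjusted p = 5.85e-06), and in untreated cells at most 1 read per library was counted. TGM2 went from 9961, 9036 and 10194 to 6490, 6417 and 6336, with 73.5 to 94.2 in untreated cells. HIC1 went from 2928, 1864 and 3099 to 1198, 1181 and 1133, with 15.7 to 26.6 in untreated cells. These 3 genes therefore stayed far above untreated cells while lying below every Am80 library. The fall of TGM2 was close to the fold limit (log2 fold change -0.60) and under it without Am80 replicate 1 (-0.58) or 3 (-0.56), and Am80 replicate 2 was the lowest Am80 library for HIC1, which was called without it too. STRA6 went from 67.8, 84.4 and 81.7 to 28.5, 34.4 and 24.5 and RARG from 240, 235 and 263 to 114, 113 and 115, levels that overlapped those of untreated cells for RARG (103 to 130). RARA, the receptor of Am80, was one of the rises, from 1375, 1030 and 1351 to 2767, 2826 and 2762 (log2 fold change 1.16, SE 0.10), and LILRA5, a leukocyte receptor, the other. DHRS3, a retinaldehyde reductase, was at 2494, 2254 and 2527 and then 1641, 1726 and 1662 and fell short of the fold limit. RARB (159, 165 and 135, then 93.2, 125 and 131), CD38 (4514, 5151 and 4735, then 4829, 5028 and 5266) and RXRA did not pass the test. Exons of RARA, TGM2 and HIC1 overlap other genes on the opposite strand (HIC1 over 29.8%, with SMG6).

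The retinoic acid response element of the DR5 kind, searched as GNTCANNNNNAGNTCA, was in 2 of the 23 listed promoters, those of STRA6 and RARB, and in 0.267% of all promoters. STRA6, the member that held it and fell, is shown at chr15:74212210-74212509 on the minus strand, with the element in capitals.
STRA6: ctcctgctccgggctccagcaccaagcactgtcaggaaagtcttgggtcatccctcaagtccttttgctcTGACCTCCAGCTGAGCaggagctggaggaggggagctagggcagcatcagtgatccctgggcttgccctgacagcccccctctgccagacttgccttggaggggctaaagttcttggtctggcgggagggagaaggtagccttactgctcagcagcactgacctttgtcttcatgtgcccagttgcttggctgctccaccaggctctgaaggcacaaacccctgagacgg

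**Figure D3:**
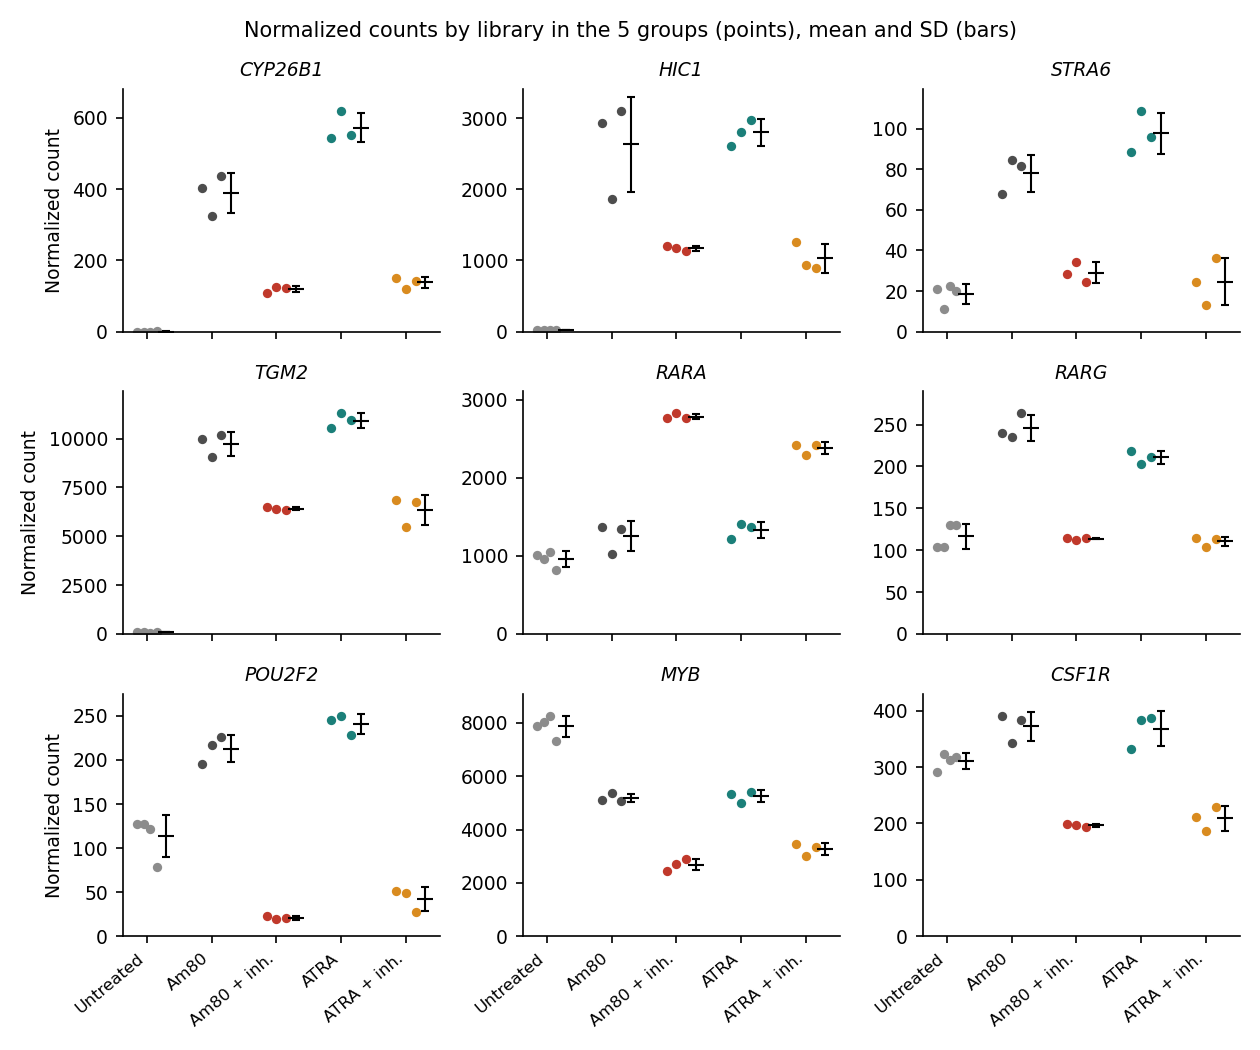
Normalized counts of 9 genes in every library of the 5 groups (points), with the mean and the SD of each group (bars, n = 4 untreated and n = 3 otherwise). The retinoid targets CYP26B1, HIC1 and TGM2 are near 0 in untreated cells and lower with the inhibitors than with Am80, RARA is highest with Am80 and the inhibitors, and POU2F2 and CSF1R end below untreated cells.

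The genes of the inhibitors' own targets changed little. KDM1A was at 2330, 2291 and 2303 with Am80 and at 1868, 2052 and 1965 with the inhibitors (log2 fold change -0.24, 95% confidence interval -0.36 to -0.11, limma adjusted p = 0.00306), which is under the fold limit. KAT2A was at 1319, 1143 and 1453 and then 1180, 1233 and 1217, with overlapping groups and an interval of -0.27 to 0.07. Transcript levels do not measure the activity of either enzyme. In the LSD1-CoREST list, 17 of 19 genes were tested, 1 rose (5.88%) and 2 fell (11.8%), shares near the 6.9% and 8.8% of all genes tested. SNAI1, a zinc-finger repressor that recruits LSD1, rose from 163, 121 and 137 to 779, 775 and 648, the CoREST paralog RCOR2 fell from 46.4, 40.9 and 62.2 to 9.87, 5.50 and 11.6, and ZMYM3 fell from 649, 621 and 738 to 312, 399 and 384. GFI1 was at 2906, 2946 and 3013 and then 4398, 4405 and 4377, a difference of 0.57 just under the fold limit of 0.58. None of the 25 subunits of the GCN5 and PCAF complexes was called (median log2 fold change 0.02, and -0.10 when libraries were scaled to total reads), against 15.7% of all genes tested. USP22, the deubiquitinase of SAGA and the most abundant of them, was at 5599.8, 5442 and 6072 and then 6233, 6061 and 6413, with overlapping groups. Among 32 other histone acetyltransferases, deacetylases and demethylases 7 rose (21.9%, against 6.9% of all genes tested) and none fell (8.8% of all genes did). The rises were KDM6B, which removes methyl groups from lysine 27 of histone H3 (523, 411 and 516 to 1368, 1205 and 1151), SIRT6, KDM5A, CREBBP, EP300, HDAC9 and KDM7A. KDM5A and EP300 did not reach the fold limit when libraries were scaled to total reads.

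Myeloid differentiation genes did not move one way. Of 40 listed 37 were tested, 4 rose (10.8%, against 6.9% of all genes tested) and 4 fell (10.8%, against 8.8%). The median log2 fold change of 0.04 became -0.11 without Am80 replicate 2 and -0.08 when libraries were scaled to total reads. CD86, a costimulatory molecule of monocytes, rose from 549, 585 and 487 to 873, 977 and 933. FPR1, the formyl peptide receptor, rose from 25.1, 25.9 and 21.7 to 58.1, 57.7 and 52.8, and KLF4, a monocytic factor, rose by 0.66 on the log2 scale, not being called when libraries were scaled to total reads. CSF1R, the receptor of the monocyte growth factor CSF1, fell from 391, 343 and 383 to 198, 197 and 194, and FGR, a SRC family kinase, from 2819, 2550 and 2976 to 1628, 1560 and 1584. CEBPA, a master factor of granulocytes, fell from 8325, 5478 and 8960 to 4990, 4739 and 4316, and Am80 replicate 2 was again the lowest of its group. ITGAM, which encodes the surface marker CD11b, was at 73.3, 76.6 and 93.3 and then 93.2, 122 and 91.4 (log2 fold change 0.33, 95% confidence interval -0.01 to 0.66), with overlapping groups. CD14 (117, 79.2 and 108, then 119, 102 and 91.4), ITGAX and the granule genes ELANE, PRTN3, AZU1, CTSG and MPO overlapped between the groups as well.

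Stem and progenitor genes were lower or not called. Of 28 listed 22 were tested, and 10 fell (45.5%, against 8.8% of all genes tested) and none rose (6.9% of all genes did), with a median log2 fold change of -0.52. Beside POU2F2, NGFR and RCOR2 the falls were MYB, MYC, HOXA10, HOXB4, BMI1, MEIS1 and TAL1. The list holds genes that the study picked from these libraries (POU2F2, NGFR and RCOR2 among them), so its count is not independent evidence of a direction. MYB went from 5107, 5361 and 5072 to 2450, 2716 and 2877, with 7311 to 8262 in untreated cells, and MYC from 3458, 3163 and 3566 to 1826, 1744 and 1733. HOXA10 went from 1718, 1811 and 1870 to 932, 1076 and 1031, while HOXA9 (1172, 1314 and 1202, then 873, 1006 and 891) did not reach the fold limit. BMI1 and MEIS1 did not reach it without Am80 replicate 2. FLT3, a receptor kinase of progenitors, was at 1721, 1948 and 1854 and then 1814, 1824 and 1931, with an interval of -0.12 to 0.15. KIT, which encodes CD117, had 0 to 3 reads per library and could not be compared. PRDM11, at 20, 25 and 14 reads and then 4, 6 and 3 reads, was under the filter, and without the filter its log2 fold change was -1.22 (SE 0.48, limma adjusted p = 0.108). HLA-G was at 23.2, 11.9 and 20.3 and then 6.58, 16.5 and 2.57 and did not pass the test (limma adjusted p = 0.0583). It was called without Am80 replicate 2, without replicate 2 of the inhibitors, without untreated replicate 3 or 4, with a replicate block and when libraries were scaled to total reads.

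Immediate early genes and inflammatory cytokines rose in part. Of 28 immediate early genes tested 10 rose (35.7%, against 6.9% of all genes tested) and 3 fell (10.7%, against 8.8%), with a median log2 fold change of 0.46. JUN went from 280, 196 and 203 to 890, 844 and 696, EGR1 from 291, 229 and 248 to 1155, 913 and 667, and FOSB from 29.7, 21.2 and 23.1 to 91.0, 63.2 and 51.5. KLF2, a zinc-finger factor, rose from 428, 294 and 481 to 970.2, 1032 and 873, and FOSL1, a FOS family member, from 241, 210.2 and 262 to 453, 473 and 424. FOS itself was at 183, 178 and 162 and then 185, 155 and 140. The falls were in DUSP6, a phosphatase of ERK (204, 231 and 188 to 75.6, 94.8 and 78.5), DUSP2 and NR4A2. ZFP36 and IER2 were called higher but not without Am80 replicate 2. When libraries were scaled to total reads, 7 immediate early genes rose, without ZFP36, and 3 fell. Of 26 chemokine, cytokine and NF-kappaB genes tested 10 rose (38.5%, against 6.9%) and 4 fell (15.4%, against 8.8%), with a median of 0.37. CXCL8, which encodes interleukin 8, went from 3093, 2908 and 2463 to 18457, 16676 and 13070, IL1B from 483, 534 and 472 to 2457, 2344 and 2140, TNF from 70.6, 65.2 and 74.5 to 311, 250.2 and 257, and CXCL1 from 234, 260.4 and 223 to 697, 697 and 578. In these 4 genes the lowest value with the inhibitors was above the highest with Am80, as in 993 of the 1005 called rises. The groups did not overlap in 49.3% of all genes tested. CCR2, the receptor of the chemokine CCL2, fell from 1921, 1946 and 1734 to 641, 660 and 712, while CCL2 rose from 567, 576 and 548 to 1184, 1263 and 1021. NFKBIA, the inhibitor that NF-kappaB itself induces, was at 633, 673 and 699 and then 717, 717 and 699, and TNFAIP3, another such gene, fell from 386, 423 and 453 to 244, 271 and 286. The rises of NFKB2 and RELB and the fall of IL10 were not called without Am80 replicate 2. Scaled to total reads, this list gave 8 rises and 4 falls.

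Among interferon response genes, falls outnumbered rises. Of 28 listed 25 were tested, 13 fell (52%, against 8.8% of all genes tested) and 1 rose (4%, against 6.9%), with a median log2 fold change of -0.61. IFIH1, a sensor of double-stranded RNA, went from 171, 206 and 163 to 72.4, 70.1 and 82.4, MX1 from 201, 194 and 196 to 78.9, 93.5 and 107, and RSAD2 from 131, 132 and 122 to 64.7, 46.7 and 52.8. IFIT1 went from 29.7, 32.1 and 32.5 to 8.77, 5.50 and 9.01. IFIT3 went from 77.1, 92.7 and 83.9 to 31.8, 45.4 and 50.2 and XAF1, an inhibitor of XIAP, from 179, 206 and 191 to 101, 114 and 88.8. All 6 of these genes were called lower. The one that rose was IRF9, a component of the interferon-activated complex ISGF3, from 111, 157 and 135 to 214, 201 and 207, and it was not called when libraries were scaled to total reads. Its partner STAT2 did not pass the test. OAS3 and IFI44L were not called without Am80 replicate 2. The called genes had means of 27.0 to 229.9 normalized counts with Am80 and SEs of 0.13 to 0.32 on the log2 scale. In antigen presentation, 15 of 23 genes were tested, and the immunoproteasome subunit PSMB8 (732, 590 and 660 to 503, 374 and 381) and the peptide transporter TAP1 fell and none rose. The falls were 13.3% of those tested, against 8.8% of all genes tested, of which 6.9% rose. TAP1 was not called without Am80 replicate 1 or 3 or without replicate 3 of the inhibitors. The class II genes HLA-DRA, HLA-DRB1, HLA-DPA1, HLA-DPB1, HLA-DQA1, HLA-DQB1, HLA-DMA and HLA-DMB were under the filter.

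**Figure D4:**
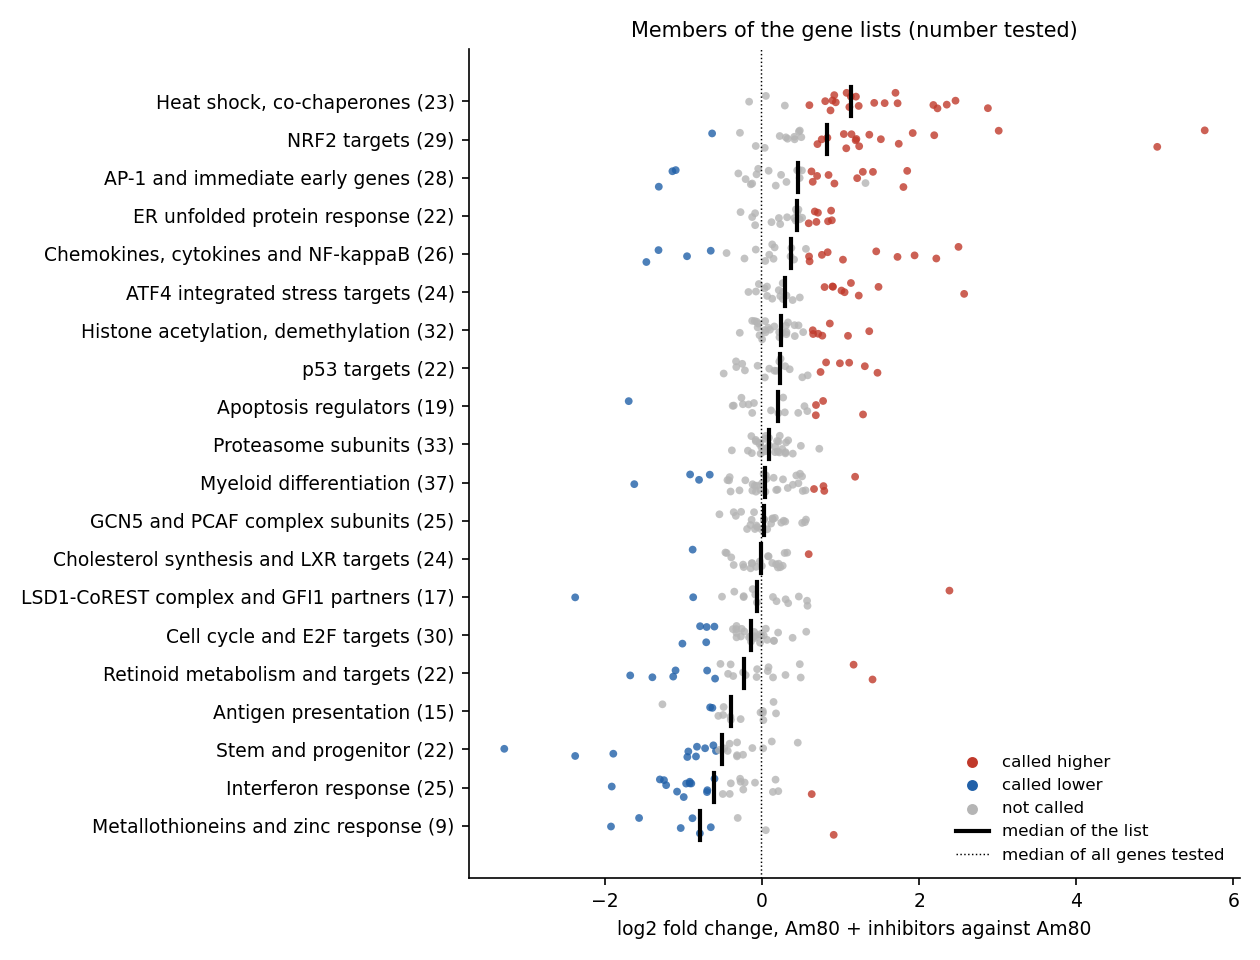
Log2 fold change of each tested member of 20 gene lists on adding the inhibitors to Am80 (points, red called higher, blue called lower, grey not called), with the median of the list (black bar) and of all genes tested (dotted line), sorted by median. Heat shock genes (median 1.13) and NRF2 targets (0.83) lie to the right and metallothioneins (-0.79), interferon response (-0.61) and stem and progenitor genes (-0.52) to the left.

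Genes of the p53 response, apoptosis and the cell cycle changed in smaller numbers. Among 22 p53 targets 6 rose (27.3%, against 6.9% of all genes tested) and none fell (8.8% of all genes did), with a median log2 fold change of 0.23. The rises were the death receptors FAS (354, 384 and 295 to 823, 884 and 841) and TNFRSF10B, the BH3-only gene PMAIP1 (512, 531 and 427 to 1472, 1381 and 1218), PLK2, TIGAR and MDM2. CDKN1A, which encodes the cell cycle inhibitor p21, was at 2404, 1872 and 2222 and then 2485, 2214 and 1952 (interval -0.17 to 0.24), and BAX and BBC3 overlapped between the groups. Of 19 apoptosis regulators tested 4 rose (21.1%, against 6.9% of all genes tested) and 1 fell (5.26%, against 8.8%). BCL2L11 (BIM) rose from 1608, 1652 and 1622 to 4292, 3748 and 3882, and its relative BMF fell from 608, 596 and 636 to 175, 184 and 206. BCL2A1, an antiapoptotic relative, rose from 186, 169 and 178 to 362, 374 and 209. The rise of CASP9 was not called when libraries were scaled to total reads. In the list of 30 cell cycle genes tested 5 fell (16.7%, against 8.8% of all genes tested) and none rose (6.9% of all genes did), and without Am80 replicate 2 the counts were 4 and 1. The falls were in the cyclins CCND1 (1463, 1516 and 1510 to 773, 756 and 693) and CCNE2, the inhibitors CDKN2C and CDKN2D, and E2F8, the last of which was not called without Am80 replicate 2 or without replicate 1 of the inhibitors. The proliferation marker MKI67 was at 7642, 8946 and 8465 and then 7998, 8277 and 9115. Cholesterol genes gave 1 rise (INSIG1, not called without Am80 replicate 2 or 3, without replicate 1 of the inhibitors, with edgeR, when scaled to total reads or when thinned) and 1 fall (MVK, 215, 210.2 and 214 to 150.2, 89.3 and 113) among 24 tested. Each was 4.17% of the list, under the 6.9% and 8.8% of all genes tested. None of the 33 proteasome genes was called (median 0.09, and -0.04 when libraries were scaled to total reads), against 15.7% of all genes tested. The most abundant was PSMA7 at 4880.3, 4108 and 4554 and then 4736, 4525 and 3954.

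Of 2213 genes tested that were annotated as other than protein-coding, 178 rose and 293 fell. Of 342 whose type the annotation did not give, 27 rose and 43 fell. Of all 14555 genes tested, 1005 rose (6.9%) and 1281 fell (8.8%). LUCAT1, a long noncoding RNA that NRF2 is known to raise, was counted at 2.79, 10.4 and 5.79 with Am80 and at 87.7, 154 and 147 with the inhibitors (log2 fold change 4.26, SE 0.41, limma adjusted p = 8.94e-08). Its Am80 values rest on 3 to 20 reads. ENSG00000215014 on chromosome 1 and ENSG00000237015 on chromosome 22, for which the annotation gives no gene symbol, rose by 2.32 and 2.10 on the log2 scale. At a mean of at least 50 in the higher group, the largest falls were in MT-TF, SIGLEC16 and ATP6V0E2-AS1. MT-TF, a mitochondrial transfer RNA of 71 bases, went from 131, 183 and 128 to 48.2, 33.0 and 37.3 (SE 0.33 on the log2 scale). It varied within other groups too, at 223, 94.0 and 225 with ATRA. The pseudogene SIGLEC16 went from 59.4, 54.9 and 60.0 to 24.1, 12.4 and 12.9. ATP6V0E2-AS1 lies opposite ATP6V0E2 over 26.3% of its exons.

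ATRA with and without the same inhibitors gave the same comparison in 6 other libraries. Those libraries do not enter the fold changes beside Am80, but both comparisons share 1 estimate of the spread from all 16 libraries. The 2 sets of calls are therefore not independent tests. Beside ATRA, 1199 genes were higher (8.24% of those tested) and 1642 lower (11.3%). Of the 1005 rises beside Am80, 722 were also called higher beside ATRA (71.8% of the Am80 rises and 60.2% of the ATRA rises) and 978 had the same sign. Of the 1281 falls, 877 were called lower beside ATRA (68.5% and 53.4%) and 1251 had the same sign. No gene was called in opposite directions. Across all 14555 genes, which are not independent replicates and share the normalization of the 16 libraries, the 2 sets of log2 fold changes had a Pearson correlation of 0.818. The list counts were close for NRF2 targets (16 higher and 1 lower beside ATRA), heat shock genes (20 and 1), metallothioneins (1 and 7), retinoid genes (2 and 6) and interferon genes (0 and 13). For ATF4 targets they were 3 higher beside ATRA and 9 beside Am80, and for stem genes 8 and 10 lower. DDIT4, an ATF4 target, differed by 1.01 beside Am80 and 0.18 beside ATRA. Antigen presentation genes gave 6 falls beside ATRA and 2 beside Am80. Chemokine, cytokine and NF-kappaB genes gave 8 rises and 1 fall beside ATRA, against 10 and 4 beside Am80. Cell cycle genes gave 1 rise and 3 falls beside ATRA, against 0 and 5 beside Am80. Other lists are not compared here.

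Whether the change differed between the retinoids was tested as an interaction in the same fit. No gene passed (limma, smallest adjusted p = 0.225), edgeR called 0 and DESeq2 5. Of the 14555 genes, 2196 had an unadjusted p under 0.05. That is a larger share than the 0.05 that would be met on average if no gene differed. The lack of calls therefore does not show that the changes beside the retinoids were equal. The smallest unadjusted p belonged to LPAR2, a lysophosphatidic acid receptor, at 400.1, 359.9 and 473 with Am80 and 635, 629.5 and 627 with the inhibitors, but 555, 542 and 534 with ATRA and 555, 509.7 and 539.9 with ATRA and the inhibitors. The difference of its log2 fold changes was 0.65 (SE 0.12). STAG3L5P, ENGASE, GPC2 and RGS18 followed, with differences of 0.74, 0.64, 1.12 and -0.56. When Am80 replicate 3 was left out, 26 genes passed the interaction. For the leading genes the difference was 0.69 in HMOX1, 0.33 in OSGIN1, 0.82 in HSPA6 and -0.76 in POU2F2, none of which passed.

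**Figure D5:**
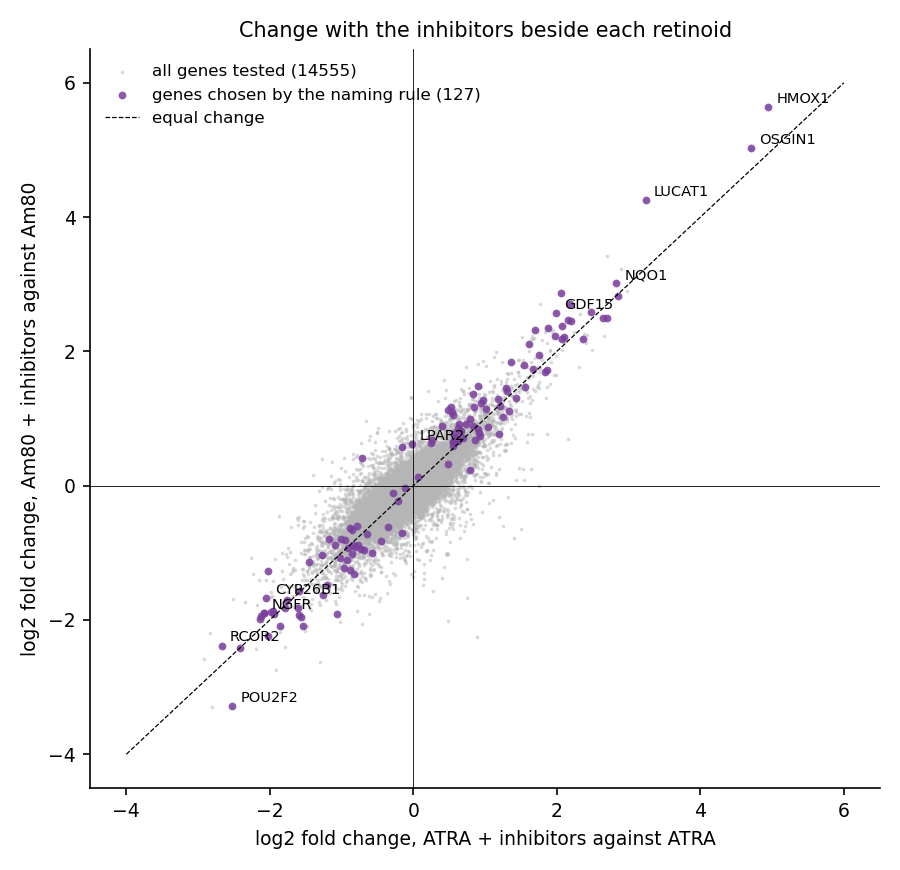
Log2 fold change on adding GSK-LSD1 and MB3 to ATRA (x axis) and to Am80 (y axis) for the 14555 genes tested (grey) and for 127 genes chosen by the naming rule (purple), with the line of equal change. HMOX1, OSGIN1 and LUCAT1 lie at the upper end and POU2F2, RCOR2 and NGFR at the lower end beside both retinoids, and LPAR2 lies near 0 beside ATRA only.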

How the data were processed

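RNA-seq of OCI-AML3 cells was deposited as 1 table of DESeq2-normalized counts for 16 libraries (unit: signal, reads divided by a size factor). Per the labels, the authors used FastQC, cutadapt, STAR, featureCounts and DESeq2. The genome build, annotation release and strand setting of the counting are not given in the sources used here, and the labels and the methods name different RNA and library kits. Because the deposited signal values were whole reads over a size factor (100% of values, tolerance 0.01 reads), reads were recovered for edgeR and DESeq2. Depth was 11963898 to 33789718 reads per library, which limits the precision of low genes. Samples were grouped by the labels.

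Log2(value + 1) was fitted with limma 3.58.1 (R 4.3.3, mean-variance trend, 1 coefficient per group, all 16 libraries) on genes with a mean of at least 10 over the 6 Am80 libraries, and p-values were adjusted over all 14555 genes. Fold changes are on this log2(value + 1) scale, which understates changes of low genes. Contrasts were Am80 with inhibitors against Am80, the same beside ATRA, and their difference. Alternatives were other pseudocounts (0.5 and 5), filters and thresholds, edgeR 4.0.16, DESeq2 1.42.0, only the groups compared, a replicate block and each library left out. Scaling to total reads and thinning to 11963898 reads were chosen after seeing the data. The fit was tested on simulated data. Named were the 12 largest protein-coding rises and falls whose 3 and 3 values did not overlap (mean of at least 50 in the higher group), 3 other genes each way by the same rule, KDM1A, KAT2A, ITGAM, KIT, POU2F2, RCOR2, PRDM11, HLA-G and NGFR, up to 6 called members of each list by smallest p (the most abundant member where none was called) and the 5 genes with the smallest interaction p. Further list members are named to describe their list and were chosen after their values were seen. The comparison and the lists were chosen with earlier results of these data known. Gene coordinates and types are from GENCODE release 29 (GRCh38), which holds 58207 of the 62700 identifiers, and overlaps were read from it. Results for some listed genes are not reported here.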

Additional observations from a re-analysis of the deposited data

Results flagged for a closer look

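In 3 of 31 genes examined, 1 of the 4 untreated libraries lay apart from the others by Dixon's criterion, which chance alone meets in about 1 in 20 groups. Untreated replicate 4 was the library concerned in each. It was the lowest for POU2F2 (78.7 normalized counts) and the highest for EMILIN1 (56.5) and PIM1 (218). The untreated libraries enter no contrast of the inhibitors, and serve there only for the shared estimate of the spread.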

How the results depend on the processing

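No called named gene changed direction. Medians near 0 did change sign under some alternatives (myeloid, GCN5, LSD1-CoREST, cholesterol and proteasome lists). The 1005 rises and 1281 falls beside Am80 became 2926 and 2842 with no fold limit and 316 and 367 at a fold of 2 and an adjusted p under 0.01, and the falls became 805 at a mean of at least 50. Beside ATRA the 1199 rises became 676 scaled to total reads, 3660 with no fold limit and 303 at the stricter thresholds, and the 1642 falls became 1085 at a mean of at least 50, 2506 scaled to total reads, 3553 and 443. With 1 library left out, rises and falls ranged from 909 to 1097 and 1090 to 1348 beside Am80 and from 1030 to 1226 and 1436 to 1742 beside ATRA, and the interaction from 0 to 26, the latter without Am80 replicate 3. DESeq2 called 5 genes in the interaction. The cause of these differences was not tested. With a replicate block, 1048 genes rose and 1330 fell beside Am80. Libraries with the same number showed little shared deviation from their group means (r = 0.15, 0.04 and -0.05 beside Am80). With 3 libraries per group this cannot decide whether the numbers pair them, and the labels do not say. Of 118 called named genes, 6 lost the call without 1 of the 6 libraries and 9 when scaled to total reads. HDAC9 and INSIG1 lost it when thinned. Without Am80 replicate 2 some lists also gained calls, with 8 rises in the unfolded protein response, 7 among p53 targets, 5 among apoptosis regulators, 2 in the LSD1-CoREST list and 1 in the proteasome list, and with 4 falls in antigen presentation and 1 in the GCN5 list. Low counts, the depth gap between the groups and the spread of 3 libraries limit small changes.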
